A study of Mus musculus with 4 samples.

Results

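The potassium channel genes of the mouse carry symbols that begin with Kcn, and all genes so named in the authors' table of reproducible phosphorylated STAT3 (pSTAT3) regions were taken as members. They were 48 of 15255 gene symbols in that table, and 82 of its 12925 regions were listed for at least 1 of them. The libraries came from chromatin immunoprecipitation and sequencing (ChIP-seq) of oligodendrocyte progenitors, the dividing precursors of myelin-forming cells, taken as primary cells from the cortex of C57BL/6 mice. Every culture had PDGF-AA at 10 ng/ml with bFGF at 20 ng/ml, and CNTF at 100 ng/ml for the last 15 min. The series holds 2 ChIP libraries made with an antibody to tyrosine-phosphorylated STAT3 and 2 input libraries, and the inputs were not analysed here. No untreated group was analysed, so the values describe treated cells only, and binding data give no level of any channel transcript or cell type marker, so the cell type was not checked.

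Potassium channels let potassium ions leave or enter a cell and so set its resting potential and the shape of its electrical responses. Voltage-gated channels open on depolarization and are built from pore subunits with auxiliary subunits, calcium- and sodium-activated channels open with the ion inside the cell, inward rectifiers hold the resting potential, and leak channels with a pair of pore domains stay open at rest. Oligodendrocyte progenitors are known for outward currents of the voltage-gated kind, and the inward rectifier Kcnj10 is the main glial one. STAT3 is a transcription factor that enters the nucleus as a phosphorylated dimer after cytokines such as CNTF act on their receptor.

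Reproducible regions at the starts of Kcn genes were few, and the strongest such promoter belonged to Kcnip3. Kcnip3 encodes a calcium-binding auxiliary subunit of A-type voltage-gated channels that is also known as a transcriptional repressor. The 250 bases before 4 transcription starts are printed here from RefSeq (GRCm38.p6), because peaks of both libraries lie over these starts or just before them. In the first 3 the window lies wholly inside a reproducible region, and the last, Kcnj2, had overlapping peaks of both libraries at its start and no reproducible region (it was chosen after these values were seen). Capitals mark TTCNNNGAA, the sequence that STAT dimers are known to bind, which reads the same on both strands.

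Kcnip3, minus strand, chr2:127522095-127522344: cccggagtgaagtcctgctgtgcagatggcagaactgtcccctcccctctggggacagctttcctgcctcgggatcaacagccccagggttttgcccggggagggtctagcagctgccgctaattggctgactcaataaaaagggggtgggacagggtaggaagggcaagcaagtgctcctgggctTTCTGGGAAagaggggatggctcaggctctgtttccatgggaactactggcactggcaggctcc
Kcna3, plus strand, chr3:107035912-107036161: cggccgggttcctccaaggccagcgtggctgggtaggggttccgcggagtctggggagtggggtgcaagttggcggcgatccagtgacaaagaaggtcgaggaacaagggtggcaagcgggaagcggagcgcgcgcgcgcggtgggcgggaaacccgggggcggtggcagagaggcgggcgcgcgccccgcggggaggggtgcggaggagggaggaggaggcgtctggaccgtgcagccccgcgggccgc
Kcnj16, plus strand, chr11:110997237-110997486: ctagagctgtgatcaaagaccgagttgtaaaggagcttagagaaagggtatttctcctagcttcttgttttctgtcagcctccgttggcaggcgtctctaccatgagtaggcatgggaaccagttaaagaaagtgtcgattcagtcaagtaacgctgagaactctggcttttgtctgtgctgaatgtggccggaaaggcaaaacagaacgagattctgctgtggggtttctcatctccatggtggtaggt
Kcnj2, plus strand, chr11:111065914-111066163: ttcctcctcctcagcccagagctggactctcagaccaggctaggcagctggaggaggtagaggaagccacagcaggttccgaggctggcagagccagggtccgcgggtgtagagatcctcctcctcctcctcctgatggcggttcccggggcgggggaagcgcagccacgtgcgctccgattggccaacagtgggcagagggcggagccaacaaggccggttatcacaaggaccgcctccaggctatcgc

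The Kcnip3 stretch held 1 match, TTCTGGGAA, at chromosome 2, 127522150 to 127522158, which is 64 to 56 bases before the start. Its centre lay 31 bp from the peak summit of replicate 1 and 28 bp from that of replicate 2. The windows of Kcna3, Kcnj16 and Kcnj2 held no match, which says only that these letters are not in them. Over the whole promoter window, from 250 bases before to 50 after a start, 8 of the 97 promoters that RefSeq gives for 72 Kcn genes held a match (8.25%, 95% Wilson interval 4.24 to 15.4%), beside 8.30% of all 32851 promoters. Of the 5 Kcn promoters whose start lay in a reproducible region (3 of Kcnip3 and those of Kcna3 and Kcnj16), 1 held a match, the Kcnip3 promoter above. Among all 2114 promoters with a start so covered the share was 16.4%. The stricter form TTCCNGGAA was in none of the 97 Kcn promoters (95% Wilson interval 0 to 3.81%) and in 1.15% of all, a share inside that interval. Another match, chosen after the values were seen, stood before Kcnj9, a G-protein-gated inward rectifier. There replicate 2 alone had a peak, of 3.33-fold with 12 stacked fragments, with its summit 159 bp upstream of the start. The stretch printed below is chr1:172329525-172329554 on the minus strand.

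Kcnj9: tgcctctattTTCCCAGAAtgaggagcaca

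Fold enrichment, the authors' ratio of stacked fragments at a peak to local background, had similar medians in the Kcn regions and in all regions. The median over the 82 Kcn regions was 10.2 in replicate 1 and 7.81 in replicate 2, beside 10.4 and 7.51 over all 12925 regions. The lower of both libraries, used below as the strength of a region, had a median of 7.68 beside 7.48, and ran from 3.07 to 41.5. It was 20 or more in 6 Kcn regions (7.32%, beside 7.76% of all) and under 10 in 61 of them (74.4%, beside 68.9% of all). Replicate 1 had the higher fold in 75 of the 82 regions, as in 95.1% of all regions, and the ratio of replicate 1 to replicate 2 had a median of 1.32 and a range of 0.869 to 2.22. The summits of both libraries lay a median of 21.5 bp apart. The labels do not say that the libraries came from separate cultures, so this spread may be technical.

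**Figure D1:**
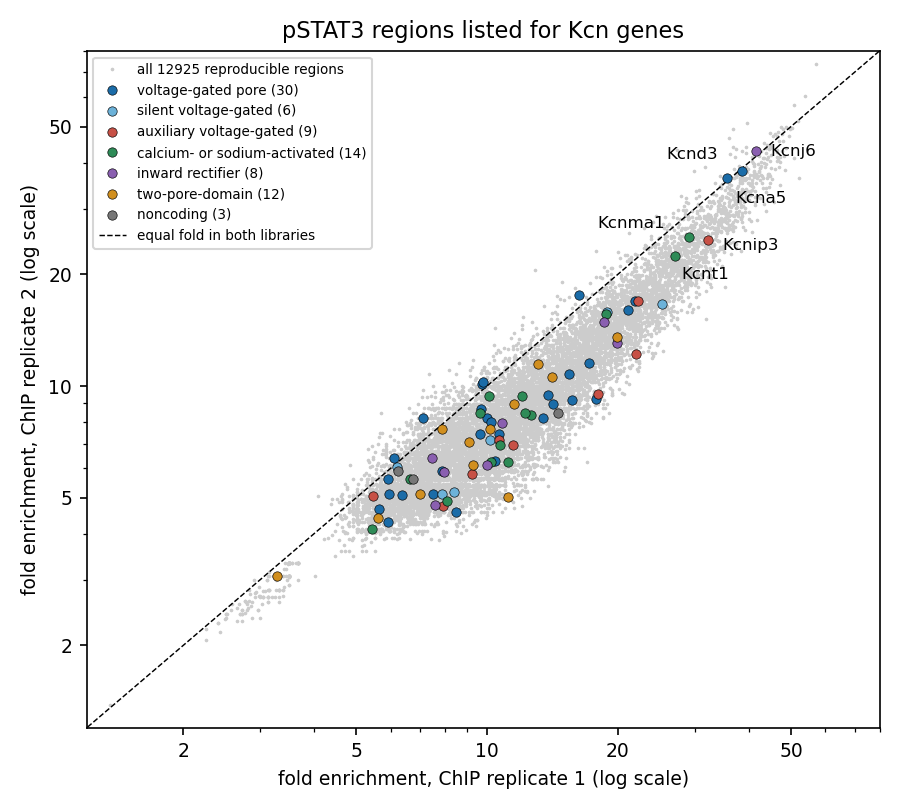
Fold enrichment in replicate 1 (horizontal) and replicate 2 (vertical), both on log scales, of the 82 Kcn regions, coloured by channel group, over all 12925 reproducible regions in grey; a region listed for 2 Kcn genes is shown once, under the nearer start. The Kcn regions span the cloud of all regions, and the highest, listed for Kcnj6, has 41.5-fold and 42.9-fold enrichment.

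The regions lay mostly far from the starts of the channel genes. Midpoints of 7 regions (8.54%) were within 1 kb of a Kcn start, 4 more were within 5 kb, 21 were over 5 and up to 25 kb away, and 50 (61.0%) were over 25 kb away. Counting the start of any listed gene, 13 of the 82 regions (15.9%) were within 1 kb, beside 23.9% of all regions, and 37 (45.1%) were over 25 kb away, beside 31.7% of all. Inside a listed transcript of any gene lay 58 of the 82 regions (70.7%), beside 7363 of all 12925 (56.97%). Inside a transcript of a Kcn gene lay 47, and the files do not say whether those are in exons, introns or UTRs. Another 24 were outside and up to 25 kb from a Kcn transcript, and 11 were farther.

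**Figure D2:**
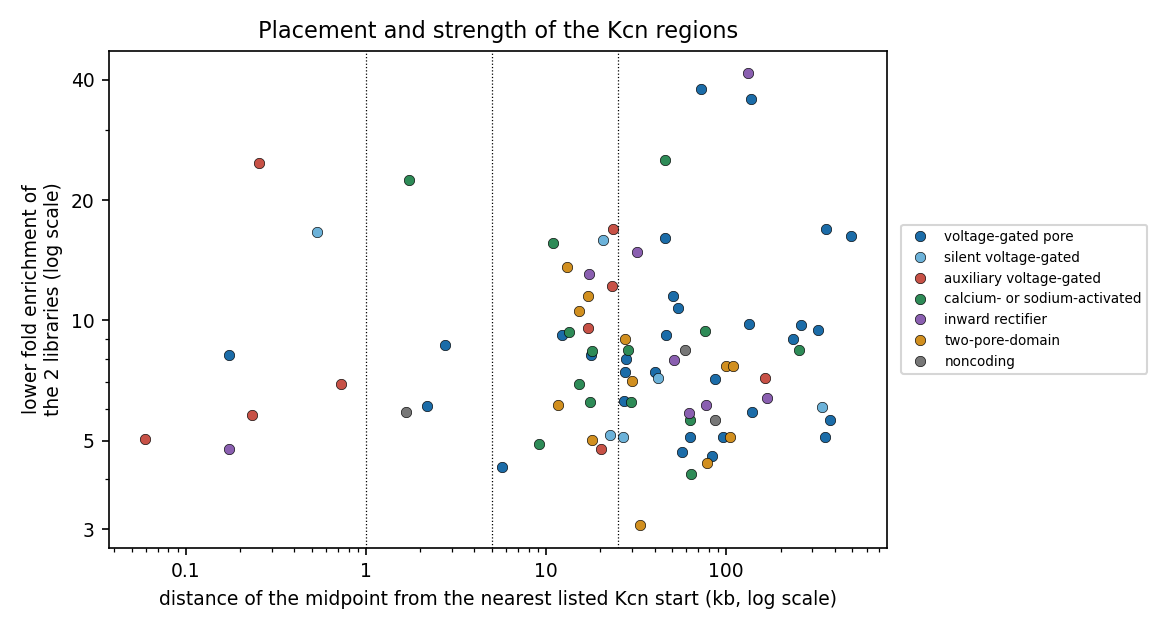
Strength of each of the 82 Kcn regions, as the lower fold enrichment of the 2 libraries, against the distance of its midpoint from the nearest listed Kcn start, both on log scales, with dotted lines at 1, 5 and 25 kb. Only 11 points lie left of the 5 kb line, and the 3 highest points lie to the right of the 25 kb line.

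Of the 94 protein-coding Kcn genes in the RefSeq gene table, 8 (8.51%) had a midpoint no more than 5 kb from a start, where the background over all 21887 protein-coding genes was 18.1%. Peaks of single libraries were counted within 5 kb of either RefSeq gene end, which is another measure than the share near listed starts. With replicate 1 alone 47 of 94 Kcn genes had such a peak (background 49.8%), and with replicate 2 alone 30 of 94 (background 34.8%). The lower share was thus not seen with replicate 1 by that count, which cannot say whether it holds at starts. Reproducible regions lay within 1 kb of a start for 5 Kcn genes (5.32%, background 12.8%), and within 25 kb for 25 (26.6%, background 34.3%). The order was the other way inside genes: 27 of 94 Kcn genes (28.7%) held a region midpoint between their ends, beside a background of 19.6%. Kcn genes were longer, with a median of 32.7 kb beside 17.2 kb. Among the 23 Kcn genes of 100 kb or more, 16 held a region (69.6%), beside 59.7% of all genes of that length; from 25 to 100 kb it was 9 of 30 (30.0%, beside 26.0%), and under 25 kb 2 of 41 (4.88%, beside 9.32%). Per length, Kcn genes held 4.40 regions per Mb and all protein-coding genes 6.88. These are counts without a test, and the members were chosen by name, not by these values.

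The table listed 46 of the 94 protein-coding Kcn genes and left out 48, and it left out 12591 of all 21887 protein-coding genes. The counts of listed genes by channel group that follow are given without a test. Among the 30 genes for pores of voltage-gated channels, 18 were in the table, with 30 regions of 4.30-fold to 37.9-fold. Kcnd3 (ENSMUSG00000040896), which encodes a pore of the A-type current, a fast outward current that inactivates, had 6 regions, more than any other Kcn gene. The strongest (chromosome 3, 105530274 to 105531351) reached 38.5-fold enrichment in replicate 1 and 37.9-fold in replicate 2, with 289 and 186 stacked fragments, and lay inside the gene 72.0 kb downstream of the nearest listed start. The next, at 105623057 to 105623741, had 21.1-fold and 16.0-fold, and the remaining 4 ranged from 4.59-fold to 10.7-fold over both libraries. The region nearest to a start of Kcnd3, 2185 bp downstream, was among the weak ones, with 6.12-fold and 6.40-fold. It was listed for the noncoding Kcnd3os as well, 2316 bp upstream of its start. Kcnd3os had 2 more, outside its transcript, which lay 86.8 kb (6.77-fold in replicate 1, 5.62-fold in replicate 2) and 58.7 kb from its start (14.6-fold, 8.45-fold). The strong signal of this gene thus stood in its body and not at its start. Kcnd2, which also encodes an A-type pore, had 16.3-fold enrichment in replicate 1 and 17.6-fold in replicate 2 at 494 kb downstream of its start (chromosome 6, 21709024 to 21709565). A weaker Kcnd2 region, 354 kb downstream, reached 6.39-fold in replicate 1 and 5.10-fold in replicate 2, and both were inside the gene.

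**Figure D3:**
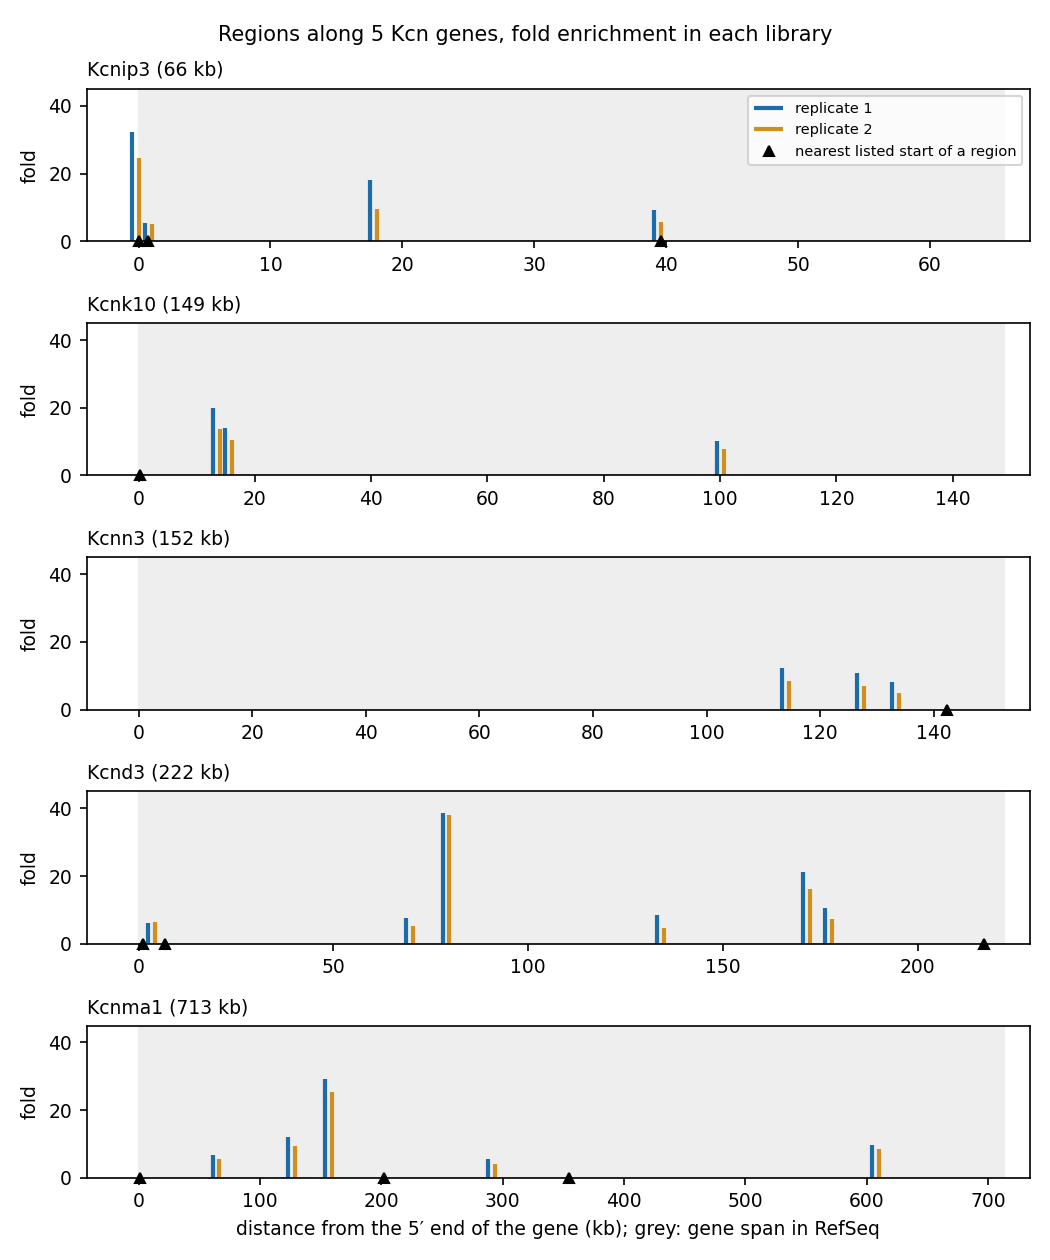
Fold enrichment of each region (vertical lines, replicate 1 blue, replicate 2 orange) by its distance in kb from the 5′ end of the gene, for Kcnip3, Kcnk10, Kcnn3, Kcnd3 and Kcnma1; grey spans the gene, triangles mark the listed starts nearest to the regions, and each pair of lines is set slightly apart for display. Kcnip3 is highest at its 5′ end, with 32.2-fold and 24.8-fold, whereas the highest pairs of Kcnd3 and Kcnma1 stand inside the gene.

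The listed genes of the Shaker (Kcna) group, which encode pores of outward currents, lay on chromosomes 3 and 6. Kcna3 (ENSMUSG00000047959), known for a part in the division of progenitors and lymphocytes, was bound 173 bp upstream of its start (chromosome 3, 107035731 to 107036247), with 13.5-fold enrichment in replicate 1 and 8.19-fold in replicate 2. It was the only pore gene of the voltage-gated group with a region within 1 kb of its start. On the same chromosome Kcna2, a pore of axonal channels, had a region of 17.8-fold and 9.22-fold 12.3 kb downstream of its start. This region was past the listed transcript but inside the gene as RefSeq gives it. On chromosome 6, Kcna1, another axonal pore, had a region of 9.69-fold and 8.69-fold 2740 bp downstream of its start, inside the transcript. That region was also listed for Kcna5, and one of 9.97-fold and 8.19-fold for both Kcna5 and Kcna6. The remaining region of Kcna5, at 126559785 to 126561193, was among the strongest of the family, with 35.7-fold and 36.4-fold. The authors' table lists it through a single long Kcna5 transcript, which starts at 126698192, whereas RefSeq places Kcna5 at 126532551 to 126535555. The region is 138 kb from the start of the long transcript. It lies outside the RefSeq gene, and its replicate 2 summit is 24702 bp from the RefSeq start. Of the 3 regions listed for Kcna5, only this region is within 25 kb of the RefSeq gene. The nearest listed start, 5.57 kb away, is that of RP23-176M22.2.

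Genes for M-type channels, slow voltage-gated channels that damp excitability, were bound in the gene body. The stronger region of Kcnq5 (chromosome 1, 21499748 to 21500318), 356 kb from its own nearest listed start, reached 21.9-fold in replicate 1 and 16.9-fold in replicate 2. Its other one, at 50.8 kb, reached 17.1-fold and 11.5-fold. Kcnq3 had 15.7-fold and 9.17-fold at 46.4 kb. Kcnq1, a pore of heart and epithelial channels, had 3 regions of 9.73-fold to 14.2-fold in replicate 1 and 8.96-fold to 10.1-fold in replicate 2, at 233 to 321 kb from its start, 1 of them 1.64 kb past the listed transcript. No Kcnq region was within 5 kb of a Kcnq start, and their folds in the libraries followed the same order within Kcnq5 but not within Kcnq1. Other pore genes in the table included Kcnb2, Kcnc1, Kcnc4, Kcnh1, Kcnh3, Kcnh7 and Kcnh8, whose regions had a strength of 4.67 to 10.8.

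Among genes for auxiliary subunits, the Kcnip genes of the A-type channels were all listed. Kcnip3 (ENSMUSG00000079056) had 4 regions, of which 3 were within 1 kb of one of its starts. The strongest (chromosome 2, 127521715 to 127522984) reached 32.2-fold and 24.8-fold enrichment with 207 and 107 stacked fragments, 255 bp upstream of the outermost start. Another, 59 bp downstream of an inner start, had 5.48-fold and 5.05-fold, and 1 more, 233 bp upstream of a further start, had 9.26-fold and 5.80-fold. The last, 17.1 kb downstream of a start and inside the gene, had 17.99-fold and 9.54-fold. Both values at the outermost start were thus above all values at the inner starts. Kcnip4, of the same subunit family, had 11.5-fold and 6.94-fold 731 bp downstream of a listed start, inside its gene of 1136 kb. Kcnip1 had 22.3-fold and 16.9-fold on chromosome 11 (33866756 to 33867310), 23.4 kb upstream of the nearest listed start and inside a longer transcript, and another region of 10.7-fold and 7.17-fold. The latter lay 163 kb from the nearest listed start, but its summits were 334 bp (replicate 1) and 324 bp (replicate 2) from a start that RefSeq gives. Kcnip2 had 7.91-fold and 4.76-fold outside the gene, 20.3 kb from its start. Kcne1 was the only other auxiliary gene in the table (22.0-fold and 12.2-fold, 23.1 kb upstream, where Rcan1 has the nearest listed start). The Kcnab genes and Kcnrg were not.

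Silent subunits, which form channels only together with other pores, had 5 of 10 genes in the table. Kcns3 (ENSMUSG00000043673), which modifies channels of the Kcnb type, was bound on chromosome 12 (11149353 to 11150328), with 25.3-fold and 16.7-fold enrichment and 148 and 70 stacked fragments, 533 bp downstream of its start and inside the transcript. The Kcns1 region, 13.2 kb outside the listed transcript, had 18.9-fold and 15.9-fold and lay 20.7 kb from the start. Kcng2, Kcns2 and Kcnv1 had weaker regions, of 5.12 to 7.17 in strength, at least 22.7 kb from a start. Kcns3 was thus the single gene of this group with a region near its start.

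Among channels that open with calcium or sodium, 7 of 12 genes were in the table, with 15 regions. Kcnt1 (ENSMUSG00000058740), the pore of a sodium-activated channel, had 27.1-fold and 22.4-fold on chromosome 2 (25865294 to 25865884), 1735 bp downstream of its start and inside the gene. A second region, 11.0 kb upstream and nearer to the start of Sohlh1, had 18.8-fold and 15.6-fold. Kcnma1 (ENSMUSG00000063142), the pore of the large-conductance calcium-activated channel, had 5 regions, all inside its 713 kb gene and none within 45 kb of a listed start. Its strongest (chromosome 14, 23848386 to 23849370) reached 29.1-fold and 25.3-fold, and the others had 5.44-fold to 12.1-fold in replicate 1 and 4.12-fold to 9.39-fold in replicate 2. The gap between the strongest region and the others was larger than the difference between the libraries at any of the 5. The auxiliary gene Kcnmb4, whose product slows these channels in brain, shared 2 regions with the noncoding Kcnmb4os1, which had 6.25-fold and 5.89-fold 1671 bp upstream of the Kcnmb4os1 start and 10.1-fold and 9.37-fold at 13.4 kb from the Kcnmb4 start. Kcnn3, a small-conductance calcium-activated channel, had 3 regions inside the gene, of 12.2-fold and 8.45-fold, 10.7-fold and 6.92-fold, and 8.09-fold and 4.91-fold, at 28.5, 15.2 and 9.14 kb upstream of an inner start.

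Inward rectifiers had the strongest Kcn region and 4 of 15 genes in the table. The region with 41.5-fold and 42.9-fold, 289 and 200 stacked fragments, lay at chromosome 16, 94723785 to 94725261. It was listed for Kcnj6, which encodes a G-protein-gated channel, but lay 24.7 kb outside its nearest listed transcript and 132 kb from its start, and the nearest listed start, at 55.6 kb, was that of the kinase gene Dyrk1a. It ranked 36 among all 12925 regions by strength. A second region, inside Kcnj6 and 17.3 kb from a start, had 19.9-fold and 13.1-fold. Kcnj16 (ENSMUSG00000051497), whose product pairs with that of Kcnj10 in glia, had 7.59-fold and 4.77-fold 174 bp upstream of an inner start, inside a longer transcript and over the sequence printed above, and a second region 168 kb upstream. Kcnj15 had 3 regions, all outside the gene, the strongest with 18.5-fold and 14.8-fold 31.8 kb upstream and the others with 9.97-fold and 6.14-fold and with 7.97-fold and 5.85-fold. Kcnj5 had 10.8-fold and 7.94-fold outside the gene at 51.5 kb.

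Leak channels with a pair of pore domains had 7 of 14 genes in the table, none of them bound less than 5 kb from its start. Kcnk10, a channel opened by stretch and lipids, had 3 regions inside the gene, with 19.9-fold and 13.6-fold at 13.1 kb, 14.1-fold and 10.5-fold at 15.2 kb and 10.1-fold and 7.68-fold at 99.8 kb from its start. The related Kcnk2 had 3 regions of 3.28-fold to 11.5-fold in replicate 1 and 3.07-fold to 8.96-fold in replicate 2, among them the weakest region of the whole family. Kcnk3, Kcnk1, Kcnk13 and Kcnk5 had 1 region each, with a strength of 4.41 to 7.68. Both regions listed for Kcnk4 lay nearest to the start of Bad, a gene of the cell death machinery, the closer one 913 bp downstream of it with 13.1-fold and 11.5-fold.

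For 35 of the 82 regions the nearest listed start belonged to a gene outside the family, and 6 of these were within 1 kb of that start. Besides the region at Bad, they were a pair at Mcrs1 listed for Kcnh3 (10.4-fold and 6.27-fold at 0.178 kb, and 10.2-fold and 7.98-fold at 0.935 kb upstream), 1 at Zfp639 listed for Kcnmb3 (12.6-fold and 8.37-fold, 24 bp downstream), 1 at Arrdc2 listed for Kcnn1 (11.2-fold and 6.25-fold, 186 bp downstream) and 1 at Smg9 listed for Kcnn4 (10.2-fold and 6.25-fold, 0.017 kb upstream). These Kcn genes are listed as neighbours of another gene's promoter.

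The RefSeq table holds 98 Kcn genes, 94 protein-coding and 4 noncoding, and 50 of them were not in the table of reproducible regions. Of these 50, 29 had a peak of at least 1 library within 5 kb of the gene, 12 had overlapping peaks of both libraries there, and 21 had no peak. Counting protein-coding genes only, 27 of 48 unlisted Kcn genes (56.3%) had a peak of either library, beside a background of 37.6% of 12591 unlisted genes, and 12 (25.0%) had overlapping peaks of both, beside 17.6%. The unlisted Kcn genes were longer, with a median of 17.8 kb beside 12.6 kb, and the part of length in these shares was not tested. Among the 12 were Kcna7, Kcnc2, Kcne1l, Kcng3, Kcnh4, Kcnj2, Kcnj10, Kcnj12, Kcnn2 and Kcnt2, chosen by these peaks after the values were seen. Those without a peak included Kcnab3, Kcne2, Kcne3, Kcnf1, Kcng1, Kcng4, Kcnh2, Kcnj1, Kcnj8, Kcnj11, Kcnj13, Kcnk6, Kcnk7, Kcnk9, Kcnk15, Kcnk16, Kcnk18, Kcnmb1, Kcnrg and Kcnv2. Replicate 1 alone gave peaks for 16 genes and replicate 2 alone for 1, where replicate 1 has 42189 peaks in all and replicate 2 has 26649. A reproducible region did lie within 25 kb of the RefSeq span of Kcnrg, at 24.3 kb from the gene, where the authors' table names other genes.

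Kcnj10, the main inward rectifier of glia (also chosen after its values were seen), had peaks in both libraries but no reproducible region. At 1739 bp downstream of its start, replicate 1 had 5.82-fold enrichment with 35 stacked fragments, and replicate 2 had 3.74-fold with 19 at 1613 bp. Further overlapping peaks stood 8818 bp (4.96-fold in replicate 1, 3.06-fold in replicate 2), 17922 bp (5.60-fold and 3.33-fold) and 35170 bp (5.42-fold and 3.07-fold) from the start, the last beyond the end of the gene. In replicate 2 these further peaks had 17, 12 and 11 stacked fragments. All of the Kcnj10 peaks named here lay under the median fold of the Kcn regions in both libraries. Kcnj2, a strong inward rectifier, had 5.65-fold and 4.36-fold with summits 66 and 14 bp downstream of its start. Near the RefSeq starts of Kcna2, Kcna7 and Kcnd2 stood overlapping peaks of 2.58-fold to 5.60-fold over both libraries that touched no reproducible region.

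**Figure D4:**
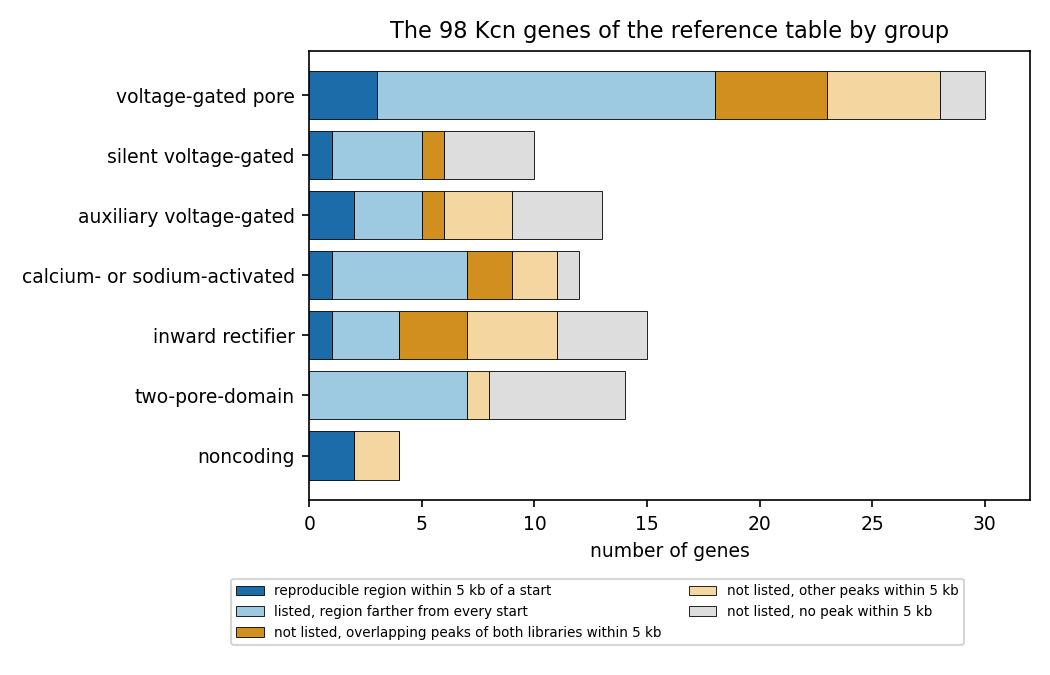
Number of the 98 Kcn genes of the RefSeq table in each channel group (horizontal bars) by what the pSTAT3 data show for them, from a reproducible region within 5 kb of a start to no peak within 5 kb. Regions within 5 kb of a start are found for 10 genes, 2 of them noncoding, and for none of the 14 leak channel genes.

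Among 30 other genes of potassium transport and of channel complexes, 7 (23.3%) were bound no more than 5 kb from a start, beside 18.1% of all protein-coding genes. The 4 strongest were Atp1b2, a subunit of the sodium-potassium pump (39.2-fold and 35.8-fold, 2.21 kb downstream), the pacemaker channel gene Hcn4 (33.8-fold and 21.2-fold, 0.971 kb upstream), Hcn3 of the same family (19.1-fold and 16.1-fold, 4.64 kb upstream) and the potassium-chloride cotransporter gene Slc12a4 (10.4-fold and 14.3-fold, 1.44 kb upstream). For sodium channel pores the count was 1 of 10, for calcium channel pores 3 of 10 and for TRP channels 3 of 21.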

How the data were processed

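The peak lists of 2 ChIP libraries and the table of reproducible regions were used. Per the submitters' processing notes, CASAVA 1.8, Bowtie2 and MACS2 were used with build GRCm38.p3, and options are not stated. Per the file headers, the deposited lists give a pileup signal (fragments piled up at each summit) and a fold, the ratio of that to local background. Columns with damaged headers hold the -log10 p and -log10 q by their place and values in the deposited lists. The deposited region table gives an IDR (irreproducible discovery rate) of 0.05 or below in a column headed adjusted p-value. Its columns headed pileup and fold_enrichment are identical and equal the -log10 p averaged over both peak lists in 12924 of 12925 regions (tolerance 0.001). They were left out, and the midpoint served as the region's place. Each region took the fold of the strongest overlapping peak (at least 1 bp) of each library. Starts were those of the transcripts that the authors' table lists for a gene. Genes and promoter sequences came from RefSeq at the later patch level GRCm38.p6 (same chromosome coordinates), in which all 48 members matched by symbol. Read depth was not given. The fold values fit a ratio with 1 fragment added to both the pileup and the background. On that basis the lowest background implied by the lists was 4.72 fragments in replicate 1 and 2.91 in replicate 2.

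The members, channel groups, partner list and motif were chosen with earlier results of these data known. Genes named by rule were those bound no more than 5 kb from a start, those with 3 or more regions, and those of the 10 strongest regions. Some genes outside that rule, such as Kcna2, Kcnq3, Kcnip2, Kcne1, Kcns1 and Kcnj5, are also given with values. Others are given by ranges, or were chosen after their values were seen. No test was run, since the design holds 1 treated group of 2 libraries. Wilson intervals cover counting error only. The overlap and motif steps were tested on simulated data. Software: numpy 2.4.6, pandas 2.3.3 and matplotlib 3.10.9 under Python 3.11.15. Some genes are counted in the totals but not reported here by name.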

Additional observations from a re-analysis of the deposited data

How the results depend on the processing

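With an IDR of 0.01 or below, or a -log10 q of at least 10 in both libraries, the Kcn regions numbered 63 and 62 in place of 82, and their median strength and the counts near starts changed by less than the limits used (1.5 times for a count, the SD between the library medians for the median). Of 28 alternative values, 18 stayed within these limits. With the IDR filter, 6 of 94 Kcn genes had a region within 5 kb of a start (background 14.8%). With the q filter it was 7 of 94 (background 14.1%), and without a filter 8 of 94 (background 18.1%). The count of Kcn genes with a region near a start moved from 8 to 5 with a window of 1 kb and to 25 with 25 kb. With single-library peaks, taken near either gene end and so by another measure, the count ranged from 30 of 94 (replicate 2, background 34.8%) to 47 of 94 (replicate 1, background 49.8%). By that measure the Kcn share with replicate 1 alone was not below the background. The median fold was 7.81 to 10.2 with 1 library. Genes not listed in the table but with a peak within 5 kb were 12 with peaks of both libraries, 10 with a -log10 q of at least 10, and 13 to 28 with 1 library, in place of 29. The motif share was 3.09% (3.91% of all promoters) from 100 bases before the start. An alternative chosen after the data were seen, the start of any listed gene, gave 13 regions within 1 kb in place of 7. Another, RefSeq starts, gave 7 genes within 5 kb, out of the 69 Kcn genes with a RefSeq promoter (background 16.5%). That is another base than the 8 of 94 genes by listed starts (background 18.1%). The region counts at starts could not be recomputed without 1 library, since a reproducible region needs both. No paired analysis was possible because the inputs were not analysed here. Read depth was not given, so what it limits was not tested.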
